A study of Drosophila melanogaster with 2 samples.

Results

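The large-subunit cytoplasmic ribosomal protein genes of Drosophila melanogaster were taken as the protein-coding genes whose symbol is RpL followed by a digit, together with RpLP0, RpLP1 and RpLP2. The rule found 53 of the 13968 protein-coding genes of the Ensembl release 115 annotation on 7 chromosomes. A gene was scored as having a promoter summit when the point of highest signal of a listed peak lay within 500 bp of any of its annotated transcription start sites (TSSs). Peaks came from chromatin immunoprecipitation with sequencing (ChIP-seq) of a single group, with 2 biological replicates per the labels. Both were whole embryos of 0 to 24 h from transgenic flies of strain CG1024-GFP, which express the CG1024 gene product fused to enhanced green fluorescent protein. The fusion was precipitated with an antibody against GFP from sonicated chromatin of 200 to 800 bp. The embryos mix all cell types and all stages of that day, the labels do not say which promoter drives the fusion, and there is no second condition.

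Ribosomal proteins of the large subunit surround the ribosomal RNA that joins amino acids, and line the tunnel through which the new protein leaves. Most are made in near-equal amounts in every growing cell. Flies heterozygous for a mutation in many of these genes show the Minute phenotype of slow development and thin bristles. Most fly ribosomal protein promoters lack the common initiator and start instead at a pyrimidine-rich TCT initiator.

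Promoters of 3 of the strongest genes, of a paralogue pair of which 1 copy was listed (RpL34b), and of a gene with a strong peak that the thresholded lists leave out (RpL13A), are shown from 100 bp before to 40 bp after an annotated TSS, on the sense strand. They were read from the RefSeq genome sequence of build dm6, at chr3L:27267155-27267295 (RpL15, plus strand), chr2L:22536610-22536750 (RpL5, minus strand), chr3L:23095431-23095571 (RpL10, minus strand), chr3R:9401186-9401326 (RpL34b, minus strand), chr3R:26059227-26059367 (RpL34a, minus strand) and chr3R:5624374-5624514 (RpL13A, plus strand). Capitals mark a TCT initiator (NCTTTN with C or T as its first and last base, and its inner C within 5 bp of an annotated TSS), the sequence CCGGAA, here always on the opposite strand and so printed as its reverse complement, and the palindrome TATCGATA, the DNA replication-related element. RpL15 has no capitals, and the same letters as the initiator farther from a TSS, there and at RpL10 and RpL34a, are left in lower case. At RpL34b a further run of these letters starts within the marked initiator, and the rest of it is in lower case. The conservative summit lay 74 bp upstream of the TSS shown at RpL15, 91 bp at RpL10, 62 bp at RpL34b and 100 bp at RpL5, which has a nearer annotated TSS at 63 bp.
RpL15: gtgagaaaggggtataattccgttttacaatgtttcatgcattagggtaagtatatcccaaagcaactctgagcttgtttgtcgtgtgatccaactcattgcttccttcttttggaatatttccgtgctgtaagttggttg
RpL5: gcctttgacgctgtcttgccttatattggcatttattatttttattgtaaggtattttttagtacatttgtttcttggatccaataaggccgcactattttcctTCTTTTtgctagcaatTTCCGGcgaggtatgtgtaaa
RpL10: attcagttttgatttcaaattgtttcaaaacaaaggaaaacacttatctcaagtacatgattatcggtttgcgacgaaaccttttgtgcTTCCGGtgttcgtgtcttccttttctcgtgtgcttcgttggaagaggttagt
RpL34b: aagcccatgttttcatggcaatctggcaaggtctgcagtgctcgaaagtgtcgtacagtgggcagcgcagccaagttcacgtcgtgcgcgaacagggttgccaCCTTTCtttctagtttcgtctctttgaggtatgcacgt
RpL34a: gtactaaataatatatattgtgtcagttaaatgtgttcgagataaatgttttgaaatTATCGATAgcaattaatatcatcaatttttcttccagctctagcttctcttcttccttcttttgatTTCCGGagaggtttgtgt
RpL13A: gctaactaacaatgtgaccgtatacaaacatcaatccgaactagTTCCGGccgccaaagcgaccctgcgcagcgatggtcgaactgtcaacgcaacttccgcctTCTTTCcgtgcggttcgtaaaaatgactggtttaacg

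In the conservative list of 3401 peaks, made from both replicates, 39 of the 53 genes had a promoter summit (73.6%, Wilson 95% interval 60.4 to 83.6%), beside 14.1% of all protein-coding genes. In the other series-level list the count was 41 genes (77.4%), beside 16.2% of all genes. The replicates taken alone gave 37 genes (69.8%) in replicate 1, beside 11.4% of all genes, and 31 genes (58.5%) in replicate 2, beside 10.5%. The share was thus above that of all genes in each of the 4 lists, and the gap between the replicates was small beside the distance to all genes. The intervals cover the counting of genes only, since the lists hold no read counts and the depth behind a peak is unknown. No test was made of the list, because its members were chosen with earlier results of these data known.

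**Figure D1:**
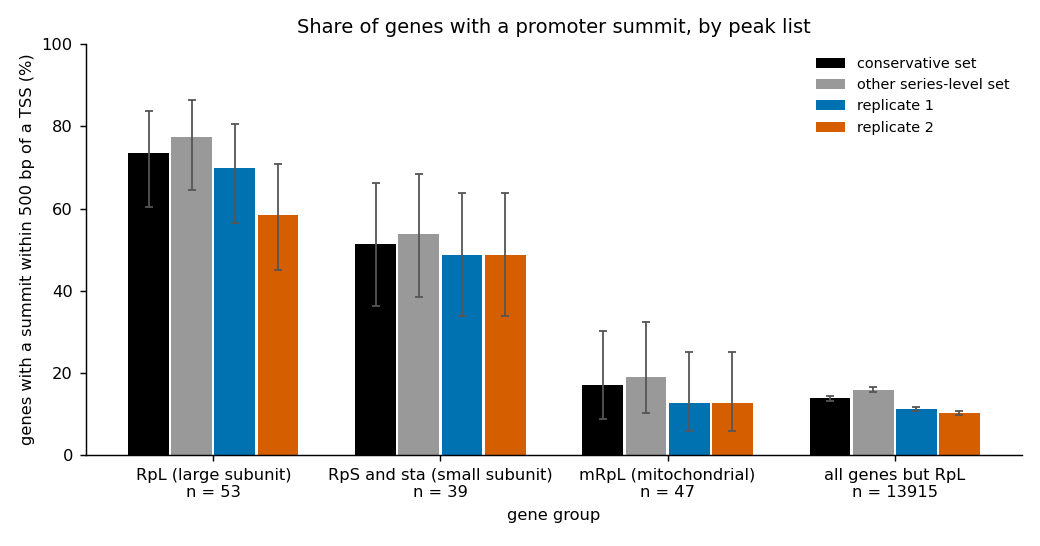
Share of genes with a summit within 500 bp of a TSS (%) for 4 gene groups in the 4 thresholded peak lists, with bars from 0 and Wilson 95% intervals. The RpL genes reach 58.5 to 77.4% and all other protein-coding genes 10.3 to 15.9%.

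Peak signal is a value of the authors' peak caller whose scale the sources do not state. Groups of genes are compared in it only within a list. Where the replicates' signals are set side by side, their scales may differ. Over the 39 genes the conservative signal ran from 64.4 to 1146 with a median of 158 (quartiles 99.7 and 195), beside a median of 102 (71.1 and 170) over all genes with a promoter summit. At 31 of the 39 it was at or above the list's median of 90.9, beside 57.2% of all genes with a promoter summit. In replicate 1's own list the RpL median was 82.1, beside 62.1 over all genes, and in replicate 2's it was 80.2, beside 64.2. The order of medians was thus the same in both replicates.

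The 39 signals fell into 5 high values and a continuous range below them. RpL15 (FBgn0028697) had a conservative signal of 1146, with 505 in replicate 1 and 648 in replicate 2. RpL38 (FBgn0040007), which in mice is needed for translation of a subset of Hox messenger RNAs, had 1103, with 481 and 621. RpL5 (FBgn0064225) had 910, with 393 and 494. RpL10 (FBgn0024733) had 866, with 391 and 474. RpL21 (FBgn0032987) had 753, with 356 and 401. In each replicate alone these 5 were also above every other RpL gene. The next gene, RpL7, had 303, with 164 in replicate 1 and 144 in replicate 2, so that RpL21 lay 2.49-fold above it. The gap was one among RpL genes only, since 156 other genes had promoter signals between these values. The split into 5 and the rest was chosen after the values were seen.

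From RpL7 down there was no further gap of that size. RpL14 had 266 (130 in replicate 1, 127 in replicate 2), RpL27A had 202 (103 in each), and RpL8 had 201 (105 and 93.2). RpL41, which encodes a peptide of very few residues, had 196 (109 and 86.6). The weakest of the 39 were RpL7A at 80.1 (44.0 and 37.6), RpLP1 at 75.2 (45.4 and 26.2), RpL9 at 71.3 (34.1 and 35.7), RpL7-like at 68.5 (45.9 and 24.3) and RpL36 at 64.4 (40.6 and 25.4). Replicate 1 was the higher at 4 of these 5, and RpL9 was nearly equal in both.

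**Figure D2:**
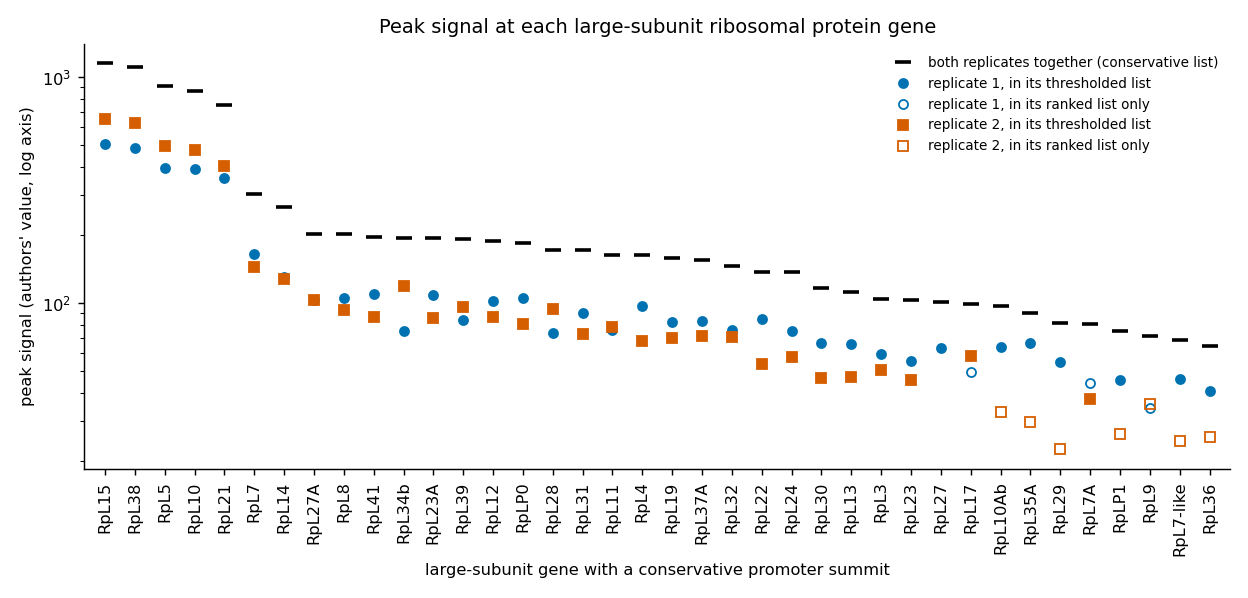
Peak signal (the authors' value, log axis) at 38 of the RpL genes with a conservative promoter summit, in order of signal; dashes are both replicates together, circles replicate 1 and squares replicate 2, filled where the replicate's own thresholded list holds the peak. The 5 strongest genes, RpL15 to RpL21, sit at 753 to 1146 and the others at 64.4 to 303.

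Of the 39 conservative peaks, 28 overlapped a thresholded peak of each replicate (71.8%, Wilson 56.2 to 83.5%), beside 55.7% of all genes with a conservative promoter summit. These 28 had signals of 103 to 1146, while the other 11 had 64.4 to 101, so each RpL peak from 103 upward was listed in both replicates. Replicate 1 alone listed 7 of them (RpL27, RpL10Ab, RpL35A, RpL29, RpLP1, RpL7-like and RpL36), and replicate 2 alone listed 3, among them RpL17 and RpL7A. RpL9 was listed in neither. RpL27, at 101, had a signal of 62.8 in replicate 1 and no peak in the ranked list of replicate 2. The other 10 had an overlapping ranked peak in both replicates, but were not in both thresholded lists.

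Across the 38 genes with a peak in both ranked lists the replicates' signals had a Spearman correlation of 0.877 and a Pearson correlation of 0.946 on the log10 scale. Over all 1960 genes with such a promoter peak the values were 0.799 and 0.903. Replicate 1 was the higher at 25 of the 38, and the median ratio of replicate 1 to replicate 2 was 1.17 (quartiles 0.905 and 1.37), beside 0.997 over all genes. The scale and depth of each replicate are unknown, so which one is the higher describes the lists only. The direction turned with signal, however. At the 5 strongest genes replicate 2 was the higher each time, with ratios of 0.774 to 0.888. Replicate 1 was the higher at 25 of the other 33 RpL genes. Outside the list replicate 2 was also the higher at 53 of the 57 other genes' peaks at or above the signal of RpL21 (93.0%). Below it the other genes were near even, with replicate 2 the higher at 633 of 1348 (47.0%). Summits of the 2 replicates lay a median of 16.0 bp apart, beside 17.0 bp over all genes.

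RpL summits lay close to the start site. Their median position was 39.0 bp upstream of the nearest TSS of the gene (quartiles 53.0 and 5.50 bp upstream), beside 107 bp upstream over all genes with a promoter summit (196 and 44.5 bp upstream). The median was 27.0 bp upstream in replicate 1's own list and 44.0 bp upstream in replicate 2's, beside 96.0 and 115 bp over all genes. Within 100 bp of a TSS lay 36 of the 39 (92.3%, Wilson 79.7 to 97.3%), beside 42.7% of all genes with a summit. None of the 39 had more than 1 summit within 500 bp, which allows a share of up to 7.69%, beside 6.43% of all genes with a summit. The number of annotated TSSs per gene, which gives a summit more places to be near, had a median of 1 both over RpL genes and over all genes.

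The 36 close summits ran from 97 bp upstream, at RpL38, to 43 bp downstream, at RpLP1, and 8 of the 39 lay at or downstream of the TSS. The 3 farther ones included those at RpL32 (194 bp upstream) and RpL7-like (470 bp). Both lay nearer to the start of a divergent neighbour, respectively CG7943 and JhI-21. RpL7-like was the gene nearest to the 500 bp limit from inside. RpL35 was the nearest outside it, with its closest conservative summit 604 bp upstream at a signal of 60.4.

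**Figure D3:**
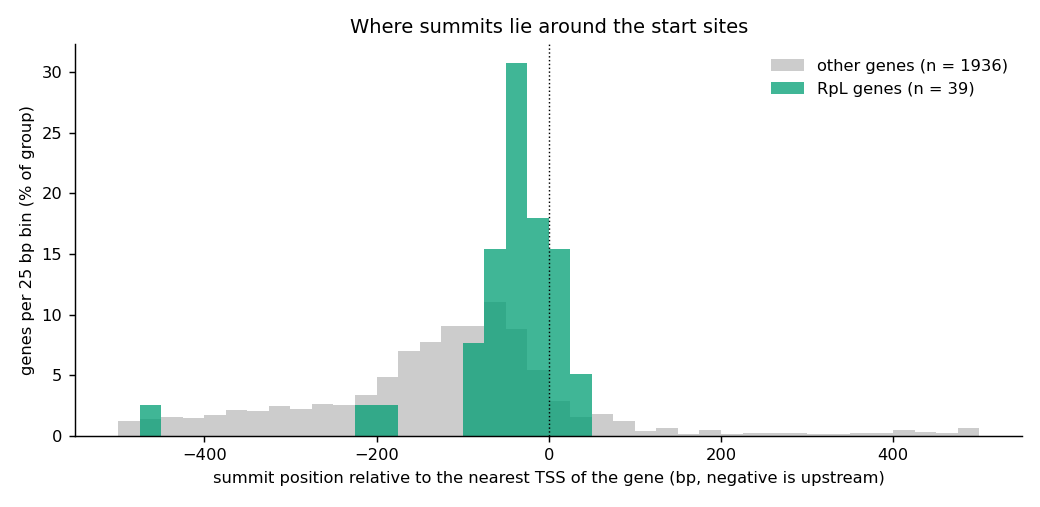
Position of the promoter summit relative to the nearest TSS of the gene (bp, negative is upstream) for 39 RpL genes and 1936 other protein-coding genes, as percent of each group per 25 bp bin. RpL summits pile up between 97 bp upstream and 43 bp downstream, while those of other genes spread farther upstream, with a median of 110 bp.

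A start site of a protein-coding gene on the opposite strand also lay within 500 bp of the summit at 17 of the 39 genes (43.6%), beside 49.9% of other genes with a summit. At 14 of the 17 the summit was nearer to the RpL start. At RpL14 the summit was 43 bp from its start and 84 bp from that of Nelf-E, a subunit of the negative elongation factor. At RpL13 it was 6 bp away and 95 bp from Dref, which encodes the factor that binds the DNA replication-related element. RpL28 had its summit at 46 bp, against 335 bp for the translation initiation factor gene eIF1. Peak lists do not assign a shared summit to either gene. The median RpL signal was 158 both with and without such a neighbour.

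By role in the ribosome, the summits were spread over most groups, which have 1 to 8 members each. Of the stalk that recruits elongation factors, RpLP0 had a signal of 183 (105 in replicate 1, 80.2 in replicate 2), its anchor RpL12 had 187 (102 and 86.5), and RpLP1 had the 75.2 given above. RpLP2, the partner of RpLP1, was in none of the 4 thresholded lists, and its ranked peak had a signal of 35.0, with 23.3 in replicate 1 and 27.7 in replicate 2. Both proteins that carry the 5S ribosomal RNA had summits, RpL5 with 910 and RpL11 with 163 (75.6 and 78.2). So did RpL10, with 866, and RpL3, with 104 (59.3 and 50.2), which reach towards the catalytic centre and the transfer RNA path.

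Of 8 proteins that line the exit tunnel or surround its opening, 6 had a promoter summit, beside 73.6% of all RpL genes. The signals were 193 at RpL23A, 191 at RpL39, 171 at RpL31, 162 at RpL4, 158 at RpL19 and 98.7 at RpL17. Of these RpL17 was not in replicate 1's thresholded list, with a ranked signal of 49.4, but was in replicate 2's, at 57.8. RpL26 and RpL35 of the same group had no conservative summit. RpL40, which is made as a fusion to ubiquitin, had none either, and its closest conservative summit lay 55085 bp away. Of the genes placed in no role group, RpL28 had a signal of 171 (73.7 in replicate 1, 93.3 in replicate 2), RpL37A 154 (82.6 and 71.2), RpL32 146 (75.5 and 70.7), RpL13 111 (65.6 and 47.1) and RpL23 103 (55.4 and 45.4). RpL29 had 81.3 (54.7 and 22.4) and was listed in replicate 1 alone.

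Paralogue pairs, taken by gene symbol, differed in how often both copies were listed. In 4 of the 6 pairs exactly 1 copy had a summit. RpL22 had a signal of 137 (84.7 in replicate 1, 53.6 in replicate 2) and RpL22-like, a copy expressed in the male germline, had no thresholded peak and a ranked signal of 25.8. RpL24 had 136 (75.1 and 57.7) and RpL24-like a ranked signal of 27.9. RpL34b had 194 (75.0 and 118) and RpL34a a ranked signal of 48.5, with 42.1 in replicate 1's own ranked list and 10.7 in replicate 2's. RpL10Ab had 96.5 (63.6 and 32.9, the latter not in the thresholded list) and RpL10Aa a ranked signal of 21.1. Both RpL7 and RpL7-like had a summit, that of RpL7-like being the one 470 bp upstream. Neither RpL37-1 nor RpL37-2 was in the conservative list. Of the 12 members of the pairs 6 had a summit (Wilson 25.4 to 74.6%). Outside the pairs 33 of 41 genes had one (80.5%, Wilson 66.0 to 89.8%), beside 73.6% of all RpL genes. The intervals overlap, and the difference was not tested.

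The 14 genes without a conservative summit were RpL6, RpL10Aa, RpL13A, RpL18, RpL22-like, RpL24-like, RpL26, RpL34a, RpL35, RpL36A, RpL37-1, RpL37-2, RpL40 and RpLP2. All 14 had a peak of the unthresholded ranked list within 500 bp of a TSS, as did 79.4% of all genes, so this says little of them. RpL18 and RpL37-1 were in the other series-level list, with signals of 64.5 and 58.2. Both were in replicate 1's thresholded list, at 59.9 and 50.4, and had ranked peaks of 33.0 and 9.81 in replicate 2. Apart from RpL13A, 11 genes were in none of the 4 lists, with ranked signals of 21.1 to 48.5. In this group are RpL6 (40.2), RpL36A (36.0), RpL35 (35.5), RpL26 (33.8), RpL40 (24.7) and RpL37-2 (21.1).

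RpL13A stood apart from the other 13. Its ranked peak, at chr3R:5624293-5624572 in dm6, had its summit 41 bp upstream, with a signal of 138, which would place it 23rd among the RpL genes. The replicates' own signals there were 81.6 and 55.4. The global irreproducible discovery rate (IDR), the expected share of irreproducible peaks among those ranked at least as high, was 9.1e-05, well under the 0.01 that every listed peak met. The peak was nevertheless in none of the 4 thresholded lists. It is among 87 of the 3484 ranked peaks past that level on these chromosomes that the conservative list leaves out, for a reason the labels and headers do not state. With it counted, 40 of 53 genes had a promoter peak (75.5%), beside 14.4% of all genes.

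The 5 strongest genes shared a position that the rule did not use. All lay within 6 Mb of the centromeric end of the assembled sequence of their chromosome arm, at 0.843 Mb (RpL15), 0.977 Mb (RpL5), 1.27 Mb (RpL21), 4.52 Mb (RpL38) and 5.01 Mb (RpL10). Of the other 48 RpL genes, 3 lay in this zone, namely RpL30 (4.50 Mb, signal 116), RpL35A (5.47 Mb, 90.3) and RpL13A (5.62 Mb). RpLP0 lay just outside it, at 6.03 Mb, with 183. In the zone 7 of 8 RpL genes had a summit, with a median signal of 866. Elsewhere 32 of 45 had one (71.1%), with a median of 150 and a range of 64.4 to 303. The 6 Mb limit was chosen after the values were seen.

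Other genes showed the same direction in signal. In the zone 240 of 1432 other genes had a promoter summit (16.8%), with a median signal of 132, and 37 of the 240 reached the signal of RpL21. Elsewhere 1657 of 12380 had one (13.4%), with a median of 95.6, and 11 of the 1657 reached it. None of the 32 RpL summits elsewhere did, which allows a share of up to 9.38%. What position on the arm contributes to the RpL signals was not tested. By arm, a summit was found at 11 of 13 RpL genes on 2L, 10 of 13 on 2R, 8 of 10 on 3L, 6 of 11 on 3R and 4 of 6 on X. Over all genes the share per arm ran from 12.9% on X to 14.7% on 3L.

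**Figure D4:**
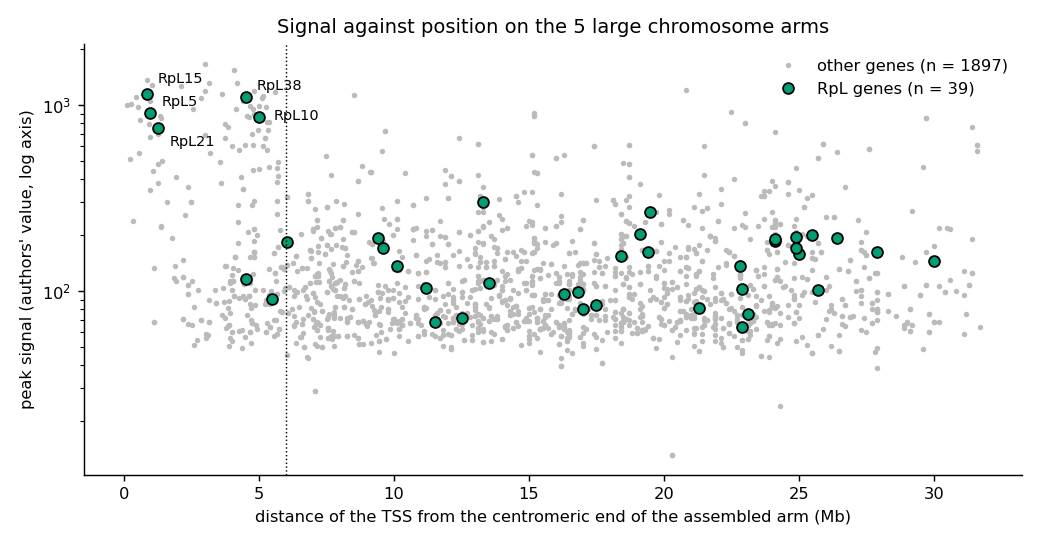
Peak signal (the authors' value, log axis) against the distance of the TSS from the centromeric end of the assembled arm (Mb) for the 39 RpL genes and 1897 other genes with a conservative promoter summit. The dotted line marks 6 Mb, and the 5 strongest RpL genes (753 to 1146) lie to its left, among other genes of equal signal.

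The RpL promoters were searched for short sequences, on both strands except for the TCT initiator. The initiator was counted as NCTTTN on the sense strand, with C or T as first and last base and the inner C within 5 bp of an annotated TSS. It was found at 31 of the 53 RpL genes (58.5%), beside 2.13% of all protein-coding genes. Among RpL genes with a summit it was found at 26 of 39 (66.7%), and among those without at 5 of 14 (35.7%). Of 242 genes with this initiator outside the RpL and RpS lists, 49 had a summit (20.2%), beside the 14.1% of all genes. In the sequences printed above, RpL5, RpL34b and RpL13A have it in capitals and RpL34a does not.

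The sequence CCGGAA, chosen after the values were seen, was found within 100 bp of the summit at 19 of 39 RpL genes (48.7%), beside 5.01% of the 1398 windows of the same length around other genes' promoter summits. Around the start sites it was found at 21 of the 39 genes with a summit (53.8%) and 5 of the 14 without (35.7%), beside 5.99% of all genes. It lay downstream of the TSS at 17 of those 21 genes, with its centre at a median of 24.5 bp past it. From the summit it lay a median of 60.5 bp away, and in windows of 50 bp its share was 23.1%. Windows of 50 bp around other genes' summits were not counted, so this lower share has no comparison. AAAGAA, likewise chosen afterwards, was found at 28 of 39 summits (71.8%), beside 23.9% of other windows. Around the start sites it was found at 74.4% of RpL genes with a summit, 71.4% of those without and 61.5% of the small-subunit genes, beside 20.4% of all genes. Its other strand, TTCTTT, can overlap the TCT initiator.

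TATCGATA was found at 8 of 39 RpL summits (20.5%), beside 7.87% of other promoter summit windows. Where present, its centre lay a median of 11.5 bp from the summit, and the count was 8 also in windows of 50 bp. No count in such windows was made for other genes. Around the start sites it was found at 23.1% of RpL genes with a summit and 28.6% of those without, beside 7.74% of all genes. For the small-subunit genes the share was 33.3%. GGTCACAC, the core of the motif of the promoter factor M1BP, was found at 7 summits (17.9%), beside 5.29%. Its share around the start sites was 12.8% for RpL genes with a summit and 14.3% for those without, beside 6.79% of all genes. CACTG was found at 15 summits (38.5%), beside 47.6%, CATCNCTA at 3, beside 8.15%, and CAGCNCTA at 1, beside 2.93%. CAGCTG was found at 0 of 39, which allows a share of up to 7.69%, beside 12.7% of other windows. A match is a run of letters and shows no binding.

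Among gene groups of related function, the small-subunit genes (RpS and sta) had a conservative promoter summit at 20 of 39 (51.3%, Wilson 36.2 to 66.1%), an interval that overlaps that of the RpL genes. Their median signal was 127 and their median summit position 23.0 bp upstream. The difference between the subunits was not tested. In replicate 2 it was 58.5 against 48.7%, and in replicate 1 it was 69.8 against 48.7%. The initiator was found at 24 of the 39 (61.5%), close to the 58.5% of RpL genes, and CCGGAA around the start of 25.6%. Genes for the large subunit of the mitochondrial ribosome (mRpL) make proteins of another ribosome. A summit was found at 8 of 47 of them (17.0%, Wilson 8.89 to 30.1%), beside 14.1% of all genes. Their median position was 97.5 bp upstream, beside 107 bp over all genes with a summit.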

How the data were processed

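The data were the authors' peak lists on build dm6, 1 thresholded and 1 ranked list for each replicate and 2 such pairs from the replicates combined. Per the deposited inventories, each derives from alignments and a control; for the aligner and peak caller, neither name nor version is given in the sources used here. All give the authors' signal value for each peak, of unstated scale, and the ranked lists give the −log10 of the global IDR as the authors deposited it. The lists hold no counts.

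From these, positions were made 1-based. Each gene took the strongest summit within 500 bp of any of its TSSs (Ensembl release 115), placed relative to the nearest of them. A replicate's signal for a conservative peak is the highest among its overlapping ranked peaks (1 bp or more). Motifs were counted within 100 bp of a summit or TSS. Named are the 10 strongest and 5 weakest genes, those without a summit and all paralogue pairs, with role groups added later; 1 gene is counted throughout but not reported here by itself. The members, lists and motifs were chosen with earlier results of these data known, and no test of the list was made. Alternatives were the other list, each replicate, other TSS windows and annotations, stricter peaks, other overlaps, the large arms and motif windows of 50 bp; added after seeing the data were an IDR cut without the authors' last step, genes away from centromeric ends and genes outside paralogue pairs. The functions were tested on simulated data. Software was pandas 2.3.3 and numpy 2.4.6 for tables, scipy 1.17.1 for intervals and matplotlib 3.10.9 for plots, run under Python 3.11.15.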

Additional observations from a re-analysis of the deposited data

How the results depend on the processing

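The share of RpL genes with a promoter summit, 73.6%, was 58.5% with only peaks of at least median signal and 52.8% with only peaks listed in each replicate, beside 8.09% and 7.88% of all genes, and 58.5 to 69.8% with 1 replicate left out. The other 8 alternatives that keep both replicates gave 69.8 to 80.5%. The median signal of 158 was 154 in the other list, 162 and 156 with TSS windows of 200 and 1000 bp, 171 with peaks of at least median signal, 185 with peaks listed in each replicate, 156 with the IDR level alone, 150 away from centromeric ends and 162 without paralogue pairs. With 1 replicate left out it was 80.2 to 82.1, on that replicate's own scale. The median summit position stayed between -44.0 and -27.0 bp (negative is upstream) in all 12 alternatives, and 28 genes were listed in both replicates in all 3. In motif windows of 50 bp CCGGAA fell from 48.7 to 23.1% of summits, AAAGAA from 71.8 to 28.2% and CATCNCTA from 7.69 to 2.56%. A shorter window cannot gain matches, and other genes' windows of that length were not counted. No paired analysis was possible because there is 1 group.

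The limits are those of peak lists: 2 replicates, no reads, an unstated signal scale, a whole-embryo mixture and no sample without the fusion among the lists used here.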

Other observations

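Among genes that host small nucleolar RNAs, which guide modification of ribosomal RNA, 16 were RpL genes with 33 such RNAs. An RpL gene was counted as a host when such an RNA gene lay within its span on the same strand, and introns were not read. A promoter summit was found at 14 of the 16 (87.5%, Wilson 64.0 to 96.5%). Of the 37 RpL genes that host none, 25 had one (67.6%, 51.5 to 80.4%), so the intervals overlap. The members of paralogue pairs without a summit all lie in that group of 37. Of 68 other host genes 21 had a summit (30.9%), beside 14.1% of all genes.

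Of 10 genes for elongation factors and other growth-regulated messages, 6 had a conservative promoter summit (60.0%, Wilson 31.3 to 83.2%), beside 14.1% of all genes. The signals were 715 at eEF5, 448 at eEF1alpha1, 282 at eEF1delta, 271 at eEF1gamma, 117 at eEF2 and 89.8 at Rack1, which encodes a small-subunit scaffold protein. The first 5 were listed in both replicates and Rack1 was not. Of 24 ribosome biogenesis genes 7 had a summit (29.2%, Wilson 14.9 to 49.2%). Tif-IA, a factor of RNA polymerase I initiation, led at 382 (172 in replicate 1, 215 in replicate 2). It was followed by eIF6, which keeps the subunits apart, at 345 (162 and 173).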
